A study of Mus musculus with 16 samples.

Results

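The circadian clock genes of this report are 10 named genes of the mammalian clock: Arntl, Clock, Per1, Per2, Per3, Cry1, Cry2, Nr1d1, Nr1d2 and Dbp. They were chosen by name, and each was read from its single probe set carrying that gene symbol alone. All 10 passed the filter on dim probes, among 16427 genes tested. Levels were measured on microarrays in naive CD4+CD62LhiCD25- T cells sorted from spleen and lymph nodes of B6 mice. The cells were cultured for 24 h at 1000000 cells per ml in 10% serum with antibody-coated latex beads. The 4 combinations of genotype and stimulus were compared, with 4 arrays each. KO_CD3CD28 cells carried a knockout of DEC1, the repressor encoded by Bhlhe40, and received anti-CD3 plus anti-CD28. KO_CD3 cells carried the same knockout and received anti-CD3, an antibody to part of the T cell receptor complex. WT_CD3CD28 cells were wild type and received both antibodies, and WT_CD3 cells were wild type and received anti-CD3. All groups therefore had T cell receptor stimulation, and no unstimulated cells were analysed here. The sources used here do not give the sex or age of the mice, the part of the gene that was deleted, or the clock time at which cells were taken.

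The clock is a feedback loop of transcription. CLOCK and ARNTL (also called BMAL1) pair as basic helix-loop-helix activators, bind E-boxes, and drive the period genes Per1 to Per3 and the cryptochromes Cry1 and Cry2, whose proteins return to the nucleus and block the pair. A second loop runs through the nuclear receptors Nr1d1 and Nr1d2 (REV-ERB alpha and beta), E-box targets that repress Arntl in competition with ROR activators. Dbp, a leucine zipper activator at D-boxes, is an output of the loop, and DEC1 is itself an E-box target that binds E-boxes as a repressor.

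The promoter letters below are those of the 4 members that changed with CD28 engagement, together with Cry1, which holds both E-box forms searched for. They are taken from RefSeq with build GRCm38.p6, run 5′ to 3′ on the gene's own strand, and cover 300 bases around an annotated start, most of them upstream. Capitals mark matches, on either strand, to an E-box (CACGTG), an E-prime-box (CACGTT), a D-box (TTANGTAA), a cAMP response element (TGACGTCA) or a nuclear receptor hexamer (AGGTCA). The spans are chr7:113207261-113207560 on the plus strand for the second Arntl start, chr11:69098699-69098998 on the plus strand for the first Per1 start, chr14:18239057-18239356 on the minus strand for Nr1d2, chr7:45704997-45705296 on the plus strand for Dbp and chr10:85185005-85185304 on the minus strand for Cry1.
Arntl: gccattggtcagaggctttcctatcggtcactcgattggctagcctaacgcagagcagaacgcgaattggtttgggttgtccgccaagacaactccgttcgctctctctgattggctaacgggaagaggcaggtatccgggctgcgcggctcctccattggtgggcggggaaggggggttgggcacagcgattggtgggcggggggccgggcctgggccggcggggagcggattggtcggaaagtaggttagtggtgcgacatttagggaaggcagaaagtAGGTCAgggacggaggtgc
Per1: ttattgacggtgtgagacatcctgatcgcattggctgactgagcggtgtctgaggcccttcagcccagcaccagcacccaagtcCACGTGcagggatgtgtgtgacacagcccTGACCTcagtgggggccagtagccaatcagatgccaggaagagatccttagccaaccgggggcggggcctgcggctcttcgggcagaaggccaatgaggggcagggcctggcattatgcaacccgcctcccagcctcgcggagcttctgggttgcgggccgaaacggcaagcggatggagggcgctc
Nr1d2: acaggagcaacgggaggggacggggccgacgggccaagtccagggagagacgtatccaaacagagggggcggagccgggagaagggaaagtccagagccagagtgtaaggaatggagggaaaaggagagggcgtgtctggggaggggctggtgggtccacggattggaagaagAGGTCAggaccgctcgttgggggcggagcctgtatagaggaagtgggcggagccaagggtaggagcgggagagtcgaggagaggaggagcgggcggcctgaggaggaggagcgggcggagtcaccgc
Dbp: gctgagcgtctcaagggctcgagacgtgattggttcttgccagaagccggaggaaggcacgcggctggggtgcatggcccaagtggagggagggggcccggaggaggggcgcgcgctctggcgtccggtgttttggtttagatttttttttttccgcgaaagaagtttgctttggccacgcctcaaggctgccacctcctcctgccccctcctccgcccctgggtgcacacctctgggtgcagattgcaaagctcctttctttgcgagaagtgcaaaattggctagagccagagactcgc
Cry1: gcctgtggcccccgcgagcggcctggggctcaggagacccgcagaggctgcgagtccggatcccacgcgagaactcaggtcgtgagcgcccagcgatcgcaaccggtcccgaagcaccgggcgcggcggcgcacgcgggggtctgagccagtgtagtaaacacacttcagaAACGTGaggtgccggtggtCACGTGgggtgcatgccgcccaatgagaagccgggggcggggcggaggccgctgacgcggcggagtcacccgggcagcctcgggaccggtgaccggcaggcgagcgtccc

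Of the 9 members with a promoter in the table, 2 held an E-box (22.2%), against 8.09% of the 27025 genes listed. The first Per1 start had it 166 bases upstream and Cry1 had it 60 bases upstream. An E-prime-box lay in 3 members (33.3%, against 5.44% of genes), namely Cry1, Cry2 and Nr1d1, where it was 28 bases upstream of the start. A nuclear receptor hexamer lay in 4 members (44.4%, against 18.1%), in the Arntl window 32 bases downstream of the second start, in Clock, in Per1 and, 77 bases upstream, in Nr1d2. These shares count a gene with a match at any of its starts. Arntl, Clock and Per1 have 2, 3 and 2 windows, and each motif found there lay in 1 of them. Over single windows, 7.15% of all promoters held an E-box and 16.3% the hexamer. Per3 held a pair of D-boxes 205 and 158 bases upstream of its start, a motif found in 2.72% of genes. The window of Dbp held none of the 5 motifs, and a cAMP response element was found in 0 of the 9 members and in 2.03% of genes. A match describes letters, not binding. The map of matches shows these places.

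**Figure D1:**
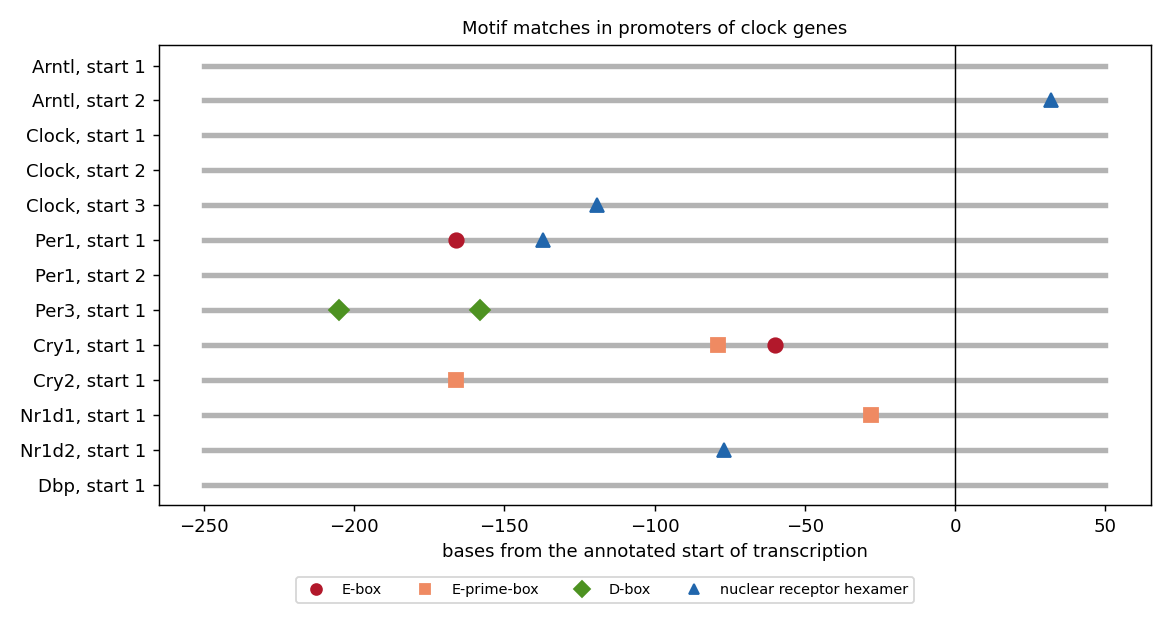
Motif matches in the 300-base promoter windows of the 9 clock genes with a promoter in the table, 1 grey line per annotated start; the x axis gives bases from the start. E-boxes appear in Per1 and Cry1, and the Dbp window has no match.

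The knockout was visible at its own gene. Bhlhe40 was at 6.07, 5.88, 5.86 and 5.73 in KO_CD3CD28, at 5.57, 5.95, 5.43 and 5.18 in KO_CD3, at 10.07, 10.03, 9.38 and 8.55 in WT_CD3CD28 and at 8.02, 7.63, 7.59 and 7.0 in WT_CD3 (log2 signal, replicates 1 to 4). Knockout arrays were near background, which here means at or below the 40th percentile of all probes of the array, so the difference of -2.03 under anti-CD3 and that of -3.62 under both antibodies bound the loss from below. In wild-type cells the gene rose by 1.95 with CD28 engagement (SE 0.27, limma adjusted p = 4.06e-05), so the stimulus comparison in wild type was also a comparison of DEC1 transcript levels.

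The labels number replicates 1 to 4 without saying whether each number is a separate mouse. The p-values therefore rest on the spread among these arrays. Array medians were 6.64 to 6.97 and arrays within a group correlated at 0.97 to 0.995 across genes. Within groups, the first component of the deviations held 39.6% of their variance and set replicates 1 and 2 apart from replicates 3 and 4 in all 4 groups. The female transcript Xist was at 10.44 to 11.36 in WT replicate 1 and in KO replicates 2 and 4 under both stimuli and at 5.09 to 5.80 elsewhere, so the replicates of a group did not all share 1 source of cells. Of 11 tested T cell identity genes, Cd4 was at 10.67 to 11.62 and Cd3e at 11.20 to 12.37, at or above the 93.5 percentile of probes on every array. Among markers of other cells, those with the highest signal on any array were Ctss (11.18 to 12.06), Klrd1 (5.56 to 10.86), Cd8b1 (8.52 to 9.84), Eomes (6.68 to 9.32), H2-Aa (6.07 to 9.25) and Lyz2 (4.94 to 8.42). The highest B cell marker was Cd79b (6.83 to 7.46), while the B cell genes Cd79a and Blnk and the monocyte receptor gene Csf1r stayed at or below the 42 percentile of probes on every array. Other genes of those lists reached higher, with Ms4a1 up to the 59.6 percentile, Pax5 to 53.3, Tyrobp to 69.4 and S100a9 to 66.2.

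The CD28 effect is the difference between anti-CD3 plus anti-CD28 and anti-CD3. Arntl, the activator, fell in both genotypes and was the member with the largest change, at about 0.524 times the anti-CD3 level in knockout cells and 0.552 times in wild type. Per1 and Dbp also fell in both genotypes, by smaller amounts. The REV-ERB gene Nr1d2 fell in knockout cells. Clock, Per2, Per3, Cry1, Cry2 and Nr1d1 did not pass the test in either genotype.

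These calls stand against a large general response. In knockout cells 4 of 10 members were lower and 0 higher at an adjusted p under 0.05, where 17.6% of all genes tested were lower, 20.4% higher and 38% either. In wild type 3 of 10 were lower and 0 higher, where 13% of all genes were lower, 16% higher and 29% either. The share of members called, 40% and 30%, was thus near the background. The median difference of the members was -0.14 in knockout and -0.07 in wild type, against -0.063 and -0.03 over all genes.

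**Figure D2:**
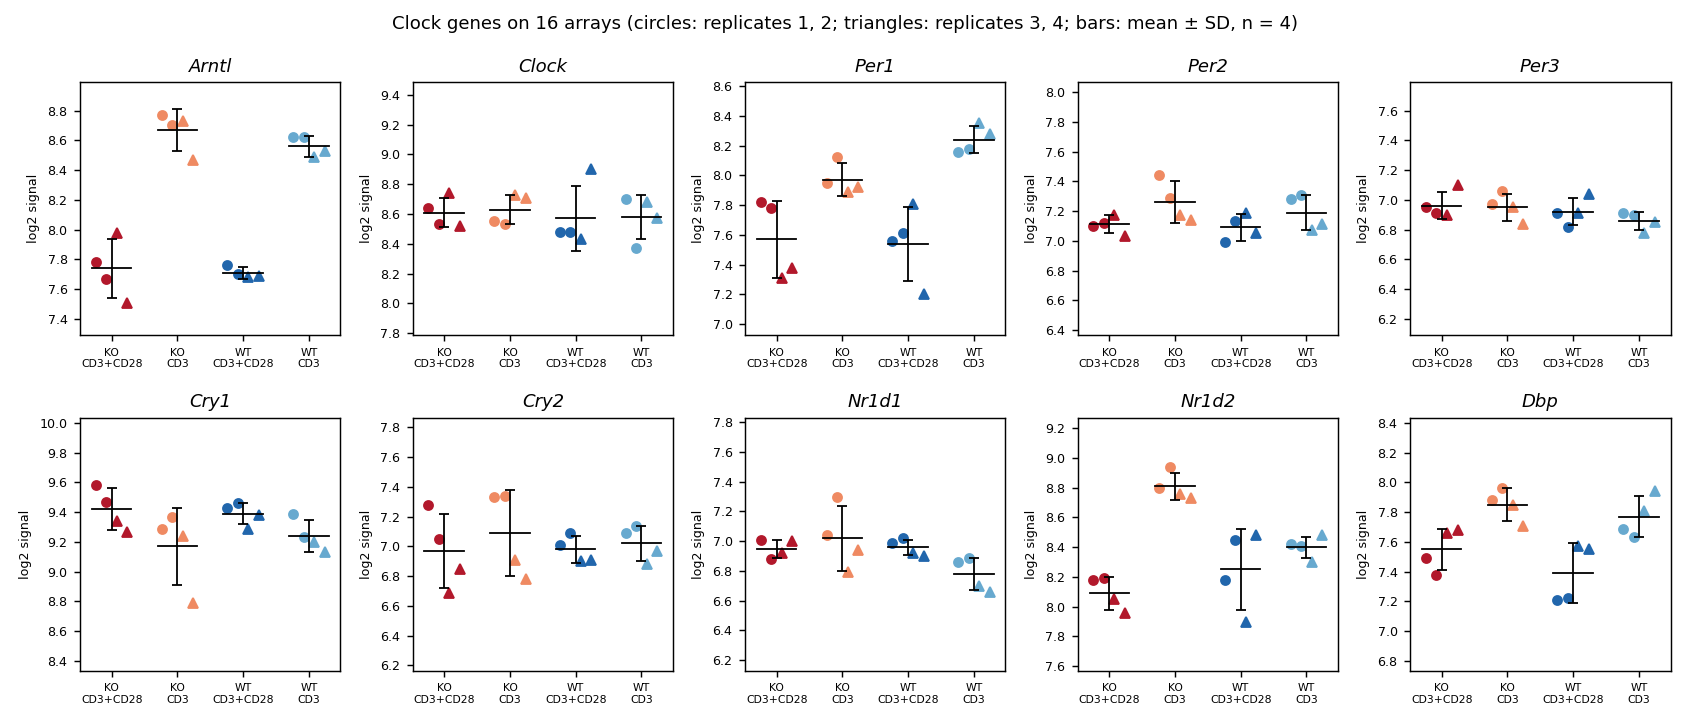
Log2 signal of each clock gene on the 16 arrays (y axis, 1 panel per gene, each spanning at least 1.7 log2 units); circles are replicates 1 and 2, triangles replicates 3 and 4, and black bars the mean ± SD (n = 4). Arntl under anti-CD3 plus anti-CD28 lies below 8 on all 8 arrays, and Nr1d2 is highest in KO_CD3.

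Among the activators, Arntl was at 7.78, 7.67, 7.98 and 7.51 in KO_CD3CD28, against 8.77, 8.70, 8.73 and 8.47 in KO_CD3. In wild type it was at 7.76, 7.70, 7.68 and 7.69 in WT_CD3CD28, against 8.62, 8.62, 8.49 and 8.53 in WT_CD3. Every array with anti-CD28 was below every array without it, in both genotypes. The difference was -0.93 in knockout (SE 0.10, limma adjusted p = 8.01e-07) and -0.86 in wild type (SE 0.10, adjusted p = 3.68e-06). In order, KO_CD3 averaged 8.67 ± 0.14 (SD, n = 4) and WT_CD3 8.56 ± 0.07, KO_CD3CD28 7.74 ± 0.20 and WT_CD3CD28 7.71 ± 0.04, and the neighbours of the same stimulus overlapped. Groups that did not overlap were found for 34.9% of all genes in knockout and 30.4% in wild type.

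Clock, which encodes the partner of ARNTL, stayed within a narrow range. It averaged 8.61 ± 0.10 in KO_CD3CD28 and 8.63 ± 0.10 in KO_CD3, a difference of -0.02 with a 95% interval from -0.25 to 0.20. In wild type it averaged 8.57 ± 0.22 in WT_CD3CD28 and 8.58 ± 0.15 in WT_CD3, a difference of -0.01 with an interval from -0.23 to 0.22. Those intervals leave out a change as large as that of Arntl. A single array, WT_CD3CD28 replicate 4, stood apart at 8.90, against 8.43 to 8.48 in the other 3.

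Of the period genes, Per1 changed. It was at 7.82, 7.78, 7.31 and 7.38 in KO_CD3CD28, against 7.95, 8.12, 7.89 and 7.92 in KO_CD3, and at 7.56, 7.61, 7.81 and 7.20 in WT_CD3CD28, against 8.16, 8.18, 8.35 and 8.28 in WT_CD3. The groups did not overlap in either genotype, with WT_CD3 the highest group and the anti-CD28 arrays spread over about the same range in both genotypes. The difference was -0.70 in wild type (SE 0.13, limma adjusted p = 0.000519) and -0.40 in knockout (SE 0.13, adjusted p = 0.0217). The knockout call was lost when arrays were centred on their medians (-0.27, adjusted p = 0.173) and without KO_CD3CD28 replicate 3, KO_CD3CD28 replicate 4 or KO_CD3 replicate 2 (adjusted p up to 0.0764). It was also lost with replicates 1 and 2 alone (-0.24, adjusted p = 0.0627) and with replicates 3 and 4 alone (-0.56, adjusted p = 0.0543). Per1 answers to cAMP and glucocorticoid signals as well as to the loop.

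Per2 and Per3, whose products share the period repressor role, did not pass the test. Per2 averaged 7.11 ± 0.06 in KO_CD3CD28 and 7.26 ± 0.14 in KO_CD3, and 7.09 ± 0.09 in WT_CD3CD28 and 7.19 ± 0.12 in WT_CD3. Its differences were -0.15 in knockout (95% interval -0.33 to 0.02) and -0.10 in wild type (-0.28 to 0.08). Per3 averaged between 6.86 ± 0.06 in WT_CD3 and 6.96 ± 0.09 in KO_CD3CD28 over the 4 groups, with differences of 0.01 in knockout (-0.15 to 0.17) and 0.06 in wild type (-0.10 to 0.22). The groups of each stimulus overlapped for both genes.

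The cryptochromes bind and silence the activator pair. Cry1 was at 9.58, 9.47, 9.34 and 9.27 in KO_CD3CD28, against 9.29, 9.37, 9.24 and 8.79 in KO_CD3, and averaged 9.39 ± 0.07 in WT_CD3CD28 and 9.24 ± 0.11 in WT_CD3. With like replicate numbers set side by side it was higher in 4 of 4 pairs in each genotype, a count not made over all genes. Its difference in knockout was 0.25 (SE 0.11, adjusted p = 0.0948), and it passed with the replicate number as a block (adjusted p = 0.0311), where 45.3% of all genes were called, and after median centring (0.38, adjusted p = 0.0231). It was 0.09 after quantile normalization (adjusted p = 0.589) and 0.12 without KO_CD3 replicate 4 (adjusted p = 0.337). In wild type its difference was 0.15 (adjusted p = 0.352) and did not pass with the block either, where 35.3% of all genes were called. Cry2 differed by -0.12 in knockout (95% interval -0.41 to 0.16) and by -0.04 in wild type (-0.33 to 0.24).

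In the REV-ERB loop the pair of genes parted. Nr1d2 was at 8.18, 8.19, 8.05 and 7.96 in KO_CD3CD28, against 8.80, 8.94, 8.76 and 8.73 in KO_CD3, so no array overlapped. In wild type it was at 8.18, 8.45, 7.90 and 8.48 in WT_CD3CD28, against 8.42, 8.41, 8.30 and 8.48 in WT_CD3, where the groups overlapped and WT_CD3CD28 was spread widely. The difference was -0.71 in knockout (SE 0.11, limma adjusted p = 6.55e-05) and -0.15 in wild type (SE 0.11, adjusted p = 0.358). Nr1d1 averaged 6.95 ± 0.06 in KO_CD3CD28 and 7.02 ± 0.22 in KO_CD3, a difference of -0.07 (adjusted p = 0.604). In wild type it averaged 6.96 ± 0.05 in WT_CD3CD28 and 6.78 ± 0.11 in WT_CD3, a difference of 0.18 (adjusted p = 0.192) whose groups did not overlap. That wild-type difference passed after median centring (0.27, adjusted p = 0.0414), after quantile normalization (0.26, adjusted p = 0.0498) and with array weights (0.23, adjusted p = 0.0339). Those were 3 of 29 alternatives, and in the rest it did not pass, with adjusted p up to 0.408.

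The output gene Dbp was at 7.49, 7.38, 7.66 and 7.68 in KO_CD3CD28, against 7.88, 7.96, 7.85 and 7.71 in KO_CD3, and at 7.21, 7.22, 7.57 and 7.55 in WT_CD3CD28, against 7.69, 7.63, 7.81 and 7.94 in WT_CD3. The groups were apart in both genotypes by narrow gaps. It fell by 0.30 on the log2 scale in knockout (SE 0.11, limma adjusted p = 0.0364) and by 0.37 in wild type (SE 0.11, adjusted p = 0.0128). In knockout the call was lost with either other scaling (median centring -0.16, quantile normalization -0.24) and without KO_CD3CD28 replicate 1 or 2 or KO_CD3 replicate 1, 2 or 3 (adjusted p up to 0.122). In wild type it was lost without WT_CD3CD28 replicate 1 or 2 or WT_CD3 replicate 4 (adjusted p up to 0.053), and in both genotypes with replicates 3 and 4 alone.

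Markers of other cells moved with the stimulus in the same comparisons. Over all genes tested, 17.6% were lower and 20.4% higher in knockout, and 13% lower and 16% higher in wild type. Of 10 tested B cell markers 6 were lower in knockout and 5 in wild type, and of 15 myeloid and dendritic cell markers 9 and 7 were lower. The summed linear signal of the B cell list was 732 to 772 in KO_CD3CD28 against 824 to 1060 in KO_CD3, and 688 to 780 in WT_CD3CD28 against 904 to 1000 in WT_CD3. For the myeloid list it was 3402 to 4018 against 4234 to 6301 in knockout, and 3505 to 3782 against 4784 to 5240 in wild type. Of 11 tested T cell identity genes 5 were lower and 1 higher in knockout, and 6 lower and 1 higher in wild type. Their summed signal was 24249 to 27326 in KO_CD3CD28 against 30502 to 34879 in KO_CD3, and 22652 to 31072 in WT_CD3CD28 against 32112 to 37427 in WT_CD3. CD8 and NK cell markers had 4 higher and 3 lower of 7 in each genotype, and erythroid and platelet markers 2 lower of 4 in knockout and 0 in wild type. Their part in the clock gene differences was not tested, and in such bulk samples fewer cells of a type and less RNA per cell cannot be told apart.

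The genotype comparison sets DEC1 knockout against wild type under each stimulus, and asks whether clock genes differ where an E-box repressor of the loop is missing. With limma, 0 of 10 members passed under anti-CD3, where 1.03% of all genes did (0.28% higher and 0.749% lower). Under both antibodies 0 of 10 passed, where 0.00609% of all genes did, which is 1 gene, Bhlhe40 itself. At an unadjusted p under 0.05 there were 2 members under anti-CD3, Nr1d2 and Nr1d1, where 24.3% of all genes were below that value, and 0 members under both antibodies, where 3.32% were.

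**Figure D3:**
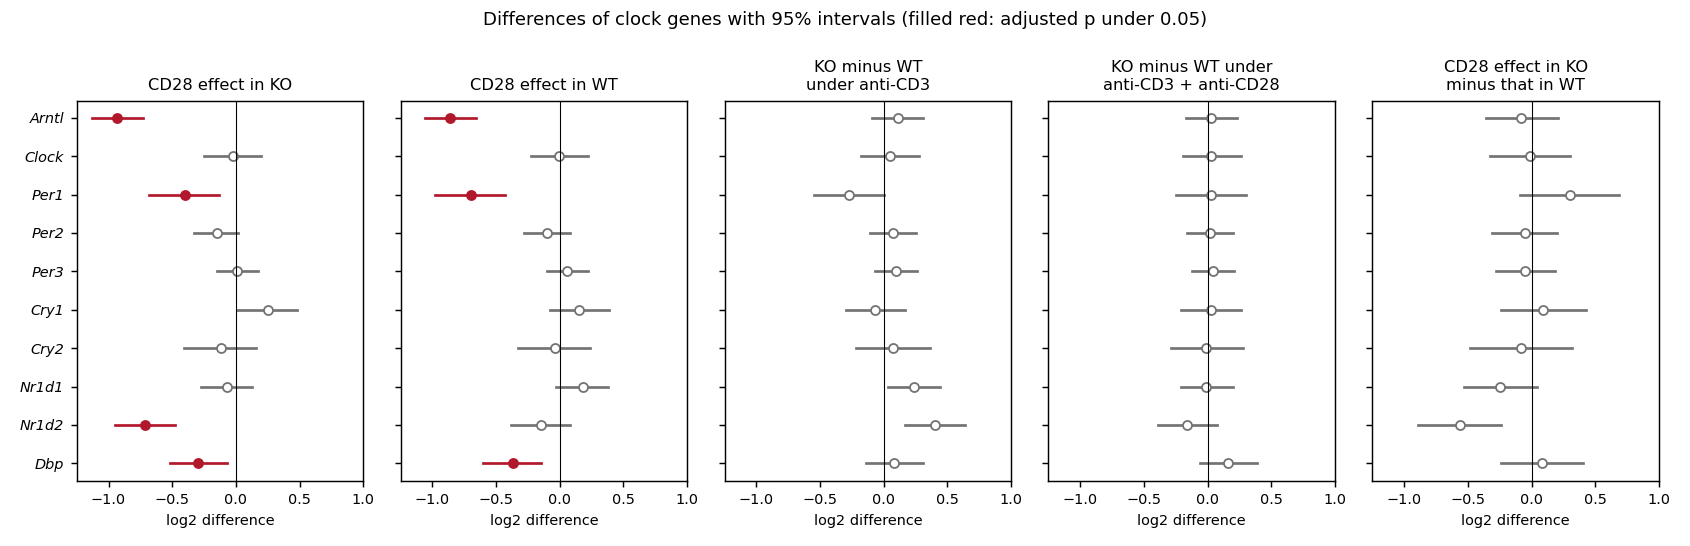
Log2 differences of the 10 clock genes (x axis) in the 5 comparisons, with 95% intervals from limma over 16 arrays; filled red points have an adjusted p under 0.05. Filled points appear for the CD28 effect alone: Arntl, Per1, Nr1d2 and Dbp in knockout and Arntl, Per1 and Dbp in wild type.

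Under anti-CD3, Nr1d2 had the largest genotype difference of the members. Its 8.80, 8.94, 8.76 and 8.73 in KO_CD3 all lay above the 8.42, 8.41, 8.30 and 8.48 of WT_CD3. The difference of 0.40 (SE 0.11, 95% interval 0.17 to 0.64) had a limma adjusted p of 0.0751 and ranked 412 of 16427 genes by p. Groups that did not overlap were found for 14.7% of all genes in this comparison. It passed with the replicate number as a block (adjusted p = 0.0223), where 11.9% of all genes were called, after quantile normalization (0.52, adjusted p = 0.0421), with array weights (adjusted p = 0.0451), with replicates 1 and 2 alone (0.45, adjusted p = 0.0326) and without WT_CD3CD28 replicate 3 (adjusted p = 0.0488). Those were 5 of 28 alternatives, and in the rest it did not pass, with adjusted p up to 0.301.

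Nr1d1, its paralog, was at 7.04, 7.30, 6.79 and 6.94 in KO_CD3, against 6.86, 6.89, 6.70 and 6.66 in WT_CD3. It was higher in 4 of 4 pairs of like number, though Xist did not match across genotypes in numbers 1, 2 and 4. Such pairs were not counted over all genes. The groups overlapped, and the difference of 0.24 had an adjusted p of 0.155. Per1 went the other way, at 7.95, 8.12, 7.89 and 7.92 in KO_CD3, all below the 8.16, 8.18, 8.35 and 8.28 of WT_CD3. That difference was -0.27 (95% interval -0.55 to 0.00, adjusted p = 0.208). The other 7 members differed by -0.07 to 0.11 between genotypes under anti-CD3, and their intervals reached from -0.30 at the lowest to 0.36 at the highest, so a change beyond 0.36 either way lies outside them.

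Under both antibodies the genotypes lay closer together. Dbp had a difference of 0.16 (95% interval -0.06 to 0.39) and Nr1d2 one of -0.16 (-0.39 to 0.07). Dbp was higher in 4 of 4 pairs of like number, a count not made over all genes. The other 8 members differed by -0.01 to 0.04. Arntl, at 0.03, had an interval from -0.17 to 0.23, and Per1, also at 0.03, one from -0.25 to 0.30. Each member's groups overlapped here, where 2.75% of all genes did not.

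Whether the CD28 effect itself differed between genotypes was tested as an interaction. With limma 0 of 10 members and 0% of all genes passed, and at an unadjusted p under 0.05 there was 1 member, Nr1d2, against 5.28% of all genes. Its interaction was -0.56 (SE 0.16, 95% interval -0.89 to -0.24, adjusted p = 0.905, rank 31 of 16427 by p). With the replicate number as a block its adjusted p was 0.297. The larger fall of Nr1d2 in knockout, its higher level in KO_CD3 than in WT_CD3 and this interaction all draw on the same 4 KO_CD3 arrays. Per1 had an interaction of 0.30 (-0.09 to 0.69) and Nr1d1 one of -0.25 (-0.53 to 0.04), and the other 7 lay between -0.08 and 0.09.

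Other genes of the clock network were read from a list of 32, of which 25 could be tested. With CD28 engagement 7 rose and 3 fell in knockout, and 8 rose and 2 fell in wild type, so 40% were called in each genotype, against 38% and 29% of all genes. Their median difference was 0.07 in knockout and 0.02 in wild type, against -0.063 and -0.03 over all genes. For the genotype and the interaction limma called 0 of 25. At an unadjusted p under 0.05 there were 4 under anti-CD3, 0 under both antibodies and 1 for the interaction, where 24.3%, 3.32% and 5.28% of all genes were below that value. With the replicate number as a block 2 of 25 passed between genotypes under anti-CD3, where 11.9% of all genes did. They were Wee1 (-0.78, adjusted p = 0.00586) and Timeless (-0.36, adjusted p = 0.0389), both lower in knockout.

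Among outputs of the loop, Nampt, the enzyme of NAD salvage, was at 10.91, 10.81, 10.48 and 10.48 in KO_CD3CD28, against 9.0, 8.75, 8.97 and 9.24 in KO_CD3. It rose 3.20-fold in knockout (log2 1.68, SE 0.15, limma adjusted p = 2.01e-07) and 2.60-fold in wild type (1.38, SE 0.15, adjusted p = 3.24e-06). Wee1, the kinase that holds back mitosis, rose by 1.8 in knockout (SE 0.20) and by 1.01 in wild type (SE 0.20). Nfil3, a repressor at the D-boxes that Dbp activates, rose by 0.51 in knockout (SE 0.10, adjusted p = 0.000487) and by 0.41 in wild type (SE 0.10, adjusted p = 0.00385), which is the opposite direction to Dbp. Tef, a relative of Dbp, fell by 0.39 in knockout (SE 0.09, adjusted p = 0.00332) and differed by -0.18 in wild type. The deubiquitinase gene Usp2 rose by 0.35 in wild type (adjusted p = 0.00702) and differed by 0.22 in knockout.

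Of the proteins that modify the loop, the coactivator genes Crebbp and Ep300 fell in both genotypes. Crebbp fell by 0.44 in knockout and by 0.33 in wild type, and Ep300 by 0.35 and 0.36 (adjusted p 0.000647 to 0.0139). Csnk2a1, a casein kinase 2 subunit, rose by 0.28 in knockout and 0.26 in wild type, and Nono, a partner of period proteins, by 0.37 and 0.23. Timeless, named for a fly clock gene and acting at replication forks in mammals, rose by 0.61 in knockout and 0.35 in wild type. The corepressor deacetylase Hdac3 rose by 0.43 in knockout (adjusted p = 0.0254) and the AMPK subunit gene Prkaa1 by 0.27 in wild type (adjusted p = 0.0114). Quantile normalization ended the calls of Csnk2a1 (0.10, adjusted p = 0.251) and Hdac3 (0.24, adjusted p = 0.216) in knockout and of Nono (0.14, adjusted p = 0.0837) and Prkaa1 (0.15, adjusted p = 0.111) in wild type. Median centring ended those of Ep300 in knockout (-0.21, adjusted p = 0.14) and in wild type (-0.27, adjusted p = 0.0639), and that of Crebbp in wild type (-0.24, adjusted p = 0.0557). Leaving out single arrays ended the call of Hdac3 (KO_CD3CD28 replicate 1 or 2, KO_CD3 replicate 2 or 4, values 0.28 to 0.42) and that of Ep300 in knockout (KO_CD3 replicate 2, -0.29). In wild type it ended those of Timeless (WT_CD3CD28 replicate 3, 0.27, or WT_CD3 replicate 1, 0.31) and Nono (WT_CD3 replicate 1 or 2, 0.21). With replicates 3 and 4 alone, the CD28 calls of Nampt and Wee1 in both genotypes and of Nfil3 in wild type were kept, and those of the other clock-linked genes named here were lost.

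**Figure D4:**
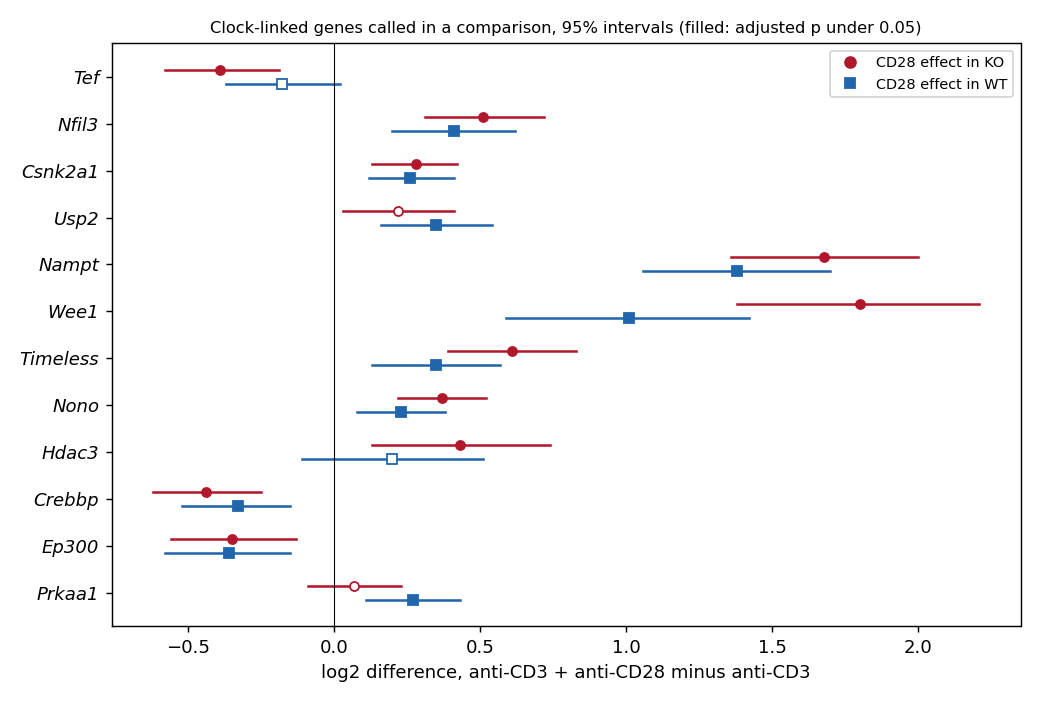
CD28 effect (x axis, log2 difference with 95% interval) of the 12 clock-linked genes that passed in a comparison, knockout as red circles above wild type as blue squares; filled symbols have an adjusted p under 0.05. Nampt and Wee1 lie furthest to the right, and Tef, Crebbp and Ep300 to the left of 0.

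The spread among replicates differed between clock genes. The residual SD within groups was 0.08 for Per3 and 0.10 for Per2, at the 3.6 and 12.3 percentiles of all genes tested, and 0.20 for Per1 and 0.21 for Cry2, at the 71.7 and 75.2 percentiles. Cry2 was higher in replicates 1 and 2 than in replicates 3 and 4 in each group, by 0.39 in KO_CD3CD28, 0.49 in KO_CD3, 0.14 in WT_CD3CD28 and 0.20 in WT_CD3. Dbp was lower in replicates 1 and 2 in 3 groups, by -0.24 in KO_CD3CD28, -0.35 in WT_CD3CD28 and -0.21 in WT_CD3, and higher by 0.14 in KO_CD3.

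Outside the members, this parting was far wider in Ciart, which encodes the clock repressor CHRONO, and in Rora, an activator that competes with REV-ERB, both singled out after their values were seen. Ciart was at 8.49, 8.05, 6.72 and 6.62 in KO_CD3CD28, at 7.86, 7.81, 6.85 and 6.48 in KO_CD3, at 7.64, 7.45, 7.27 and 7.07 in WT_CD3CD28 and at 8.10, 8.43, 7.47 and 7.19 in WT_CD3. Replicates 1 and 2 were the higher pair in every group, and the mean gap of 1.02 lay at the 99.8 percentile of all genes by size. Rora was at 8.17, 8.21, 7.10 and 6.85 in KO_CD3CD28 and at 8.48, 8.57, 7.14 and 7.13 in WT_CD3CD28, so the gap of 1.21 and 1.39 there was wider than the 0.30 of KO_CD3 and the 0.03 of WT_CD3. It was at 8.36, 7.95, 7.90 and 7.82 in KO_CD3 and at 7.85, 7.80, 7.68 and 7.92 in WT_CD3. With anti-CD28, wild-type replicates 1 and 2 were thus higher and replicates 3 and 4 lower, so the fitted difference of 0.02 averages opposite shifts. In knockout replicate 2 alone was higher and replicates 3 and 4 lay furthest below, with a fitted difference of -0.42. The labels do not say what sets the replicate numbers apart, and its part in the clock gene values was not tested beyond the separate fits of each pair of numbers.

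**Figure D5:**
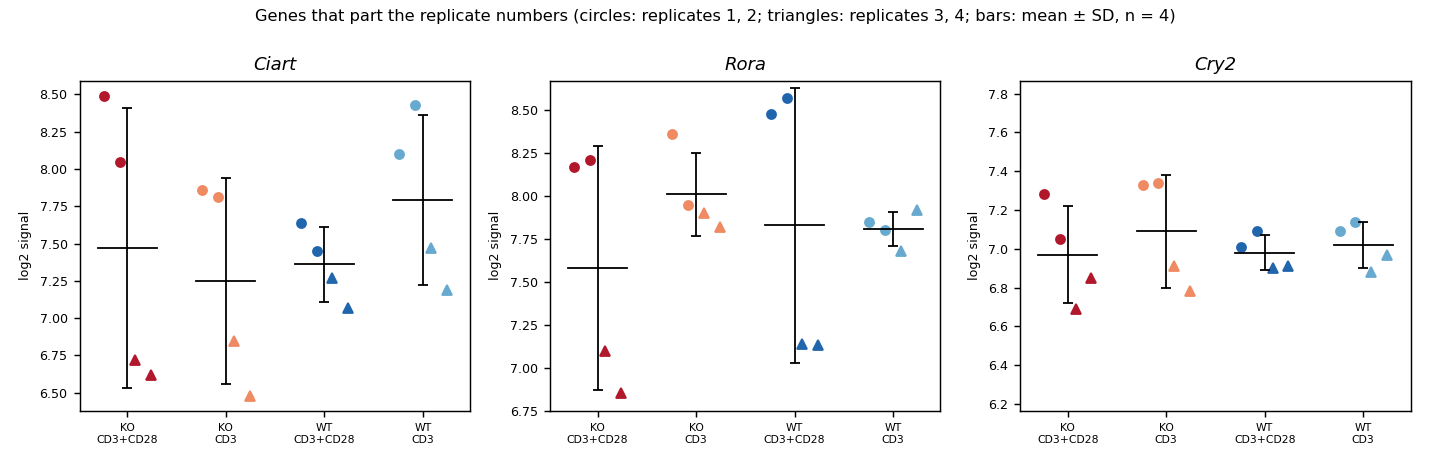
Log2 signal (y axis) of Ciart, Rora and Cry2 on the 16 arrays by group, with replicates 1 and 2 as circles, replicates 3 and 4 as triangles, and the mean ± SD (n = 4) in black. The circles of Ciart lie above its triangles in all 4 groups, by 1.60 in KO_CD3CD28 and 0.38 in WT_CD3CD28.

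For the members called in a comparison, the genes of most similar pattern were those with the smallest root mean square difference between gene-centred log2 values over the 16 arrays. For Arntl they were Smad4 (0.101), Rbm33 (0.110) and Mylip (0.118), against a median of 0.466 over all genes. For Per1 they were Cd68 (0.091), Galt (0.094) and Cln3 (0.118), and for Dbp they were Smad3 (0.072), Mob3c (0.080) and Nacc2 (0.087). For Nr1d2 the nearest, Tmc3 (0.140), Cflar (0.141) and Dgke (0.143), were less close, against a median of 0.323. No member was among the 3 nearest genes of another member.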

How the data were processed

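Gene expression was measured on 16 microarrays, 1 for each sample, in 4 groups of 4. Per the submitters' processing notes, the authors made the deposited log2 values with RMA, a method of background correction, quantile normalization and summary by probe set; no version or genome build is given in the sources used here. All 16 columns of the 35556 probe sets were used.

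Probe sets with 1 symbol in the supplied annotation (21789) were kept if at signals over the 25th percentile of their array on 4 arrays or more, and the one with the highest mean stood for a gene. Differences were fitted with limma 3.58.1 under R 4.3.3, a mean per group over 16 arrays (12 residual degrees of freedom, 4.92 prior), and Benjamini-Hochberg adjustment over 16427 genes in each of 5 comparisons. The number of arrays limits precision. The fit was tested on simulated data with independent genes. It recovered 72% of 1.5-fold changes for the CD28 effect in knockout and 41% for the interaction. In the simulation 100 genes changed by 1.5-fold and 100 by 2-fold, all in KO_CD3CD28. In the data 38% of genes were called for that effect, so the recovered shares hold for the simulated setting alone.

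Same-numbered replicates deviated together from their group means in each comparison (correlations 0.16 to 0.59 across genes, the lowest in the CD28 effect in wild type), so the replicate number was also fitted as a block. The pairing comes from these correlations and from Xist levels that match within genotype and number, not from the labels. Across genotypes Xist did not match in numbers 1, 2 and 4, so pairs of like number there rest on the correlations alone. Alternatives covered scaling, the filter, the probe rule, the variance model, array weights, the groups fitted, Xist as a covariate, pairs of replicate numbers and each array left out.

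The members and lists were chosen with earlier results of these data known. Named genes are all 10 members, each of the 32 clock-linked genes called in a comparison, Bhlhe40, and the 3 nearest genes of each called member. Ciart, Rora, Xist and the single marker genes fall outside that rule and were chosen after their values were seen. Of the 32 clock-linked genes 25 could be tested, and the others are not reported here. Sequences are RefSeq promoters, which cover 9 of the 10 members; Per2 had no entry. Motifs were counted on both strands with Python 3.11.15.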

Additional observations from a re-analysis of the deposited data

Results flagged for a closer look

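Among 92 sets of 4 arrays (23 genes in 4 groups), 3 held an array whose gap to the nearest other array, over the group's range, passed Dixon's 95% critical value, and chance marks about 1 set in 20. Clock was at 8.90 in WT_CD3CD28 replicate 4, against 8.43 to 8.48 in the other 3 arrays. Usp2 was at 7.20 in the same array, against 7.44 to 7.48. Ep300 was at 10.11 in KO_CD3 replicate 4, against 10.55 to 10.63.

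Prkaa1 was lower in knockout than in wild type in 4 of 4 pairs of like number under both antibodies (-0.10) and higher in 4 of 4 under anti-CD3 (0.10), a gap of -0.20. The test of that gap, limma's interaction, gave an adjusted p of 0.905, with a 95% interval from -0.42 to 0.03. Under anti-CD3, replicate 1 was at 9.95 in both genotypes at the printed precision, and such pairs were not counted over all genes.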

How the results depend on the processing

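In knockout 4 members were called with CD28 engagement, all lower. The count was 2 with replicates 3 and 4 alone and 2 to 4 with single arrays left out, the lowest without KO_CD3 replicate 2. After median centring Arntl and Nr1d2 were called lower and Cry1 higher (limma adjusted p = 0.0231). Per1 (adjusted p = 0.173) and Dbp (adjusted p = 0.221) then lost their calls. In wild type the count of 3 was 2 to 3 with single arrays left out. Under anti-CD3 the genotype count of 0 was 1 (Nr1d2) after quantile normalization, with array weights, with the replicate number as a block, with replicates 1 and 2 alone and, among arrays left out (0 to 1), without WT_CD3CD28 replicate 3. The counts of 0 under both antibodies and for the interaction were 0 in all alternatives run. Arntl was called in both genotypes, Per1 in wild type and Nr1d2 in knockout, in all 29 alternatives, with adjusted p up to 0.0155. Over 1562 refitted values of the members and Bhlhe40, 0 called values changed sign, 19 lost and 13 gained a call, and 78 uncalled values changed sign, by sizes up to 0.16. Calls of clock-linked genes that were lost stand beside their values, except that Hdac3 in knockout was also lost with its own groups alone (adjusted p = 0.0551). Bhlhe40 lost its call under anti-CD3 with replicates 3 and 4 alone (adjusted p = 0.0969). The replicate block added the calls of Cry1 in knockout and of Nr1d2, Wee1 and Timeless between genotypes under anti-CD3, 2 clock-linked genes in place of 0, and changed no other call of a named gene. Fitting the interaction alone was not run, since it uses all 4 groups. The causes were not tested.

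With arrays centred on their medians, the CD28 effect in knockout had a median over all genes of 0.071 in place of -0.063, and the share of higher calls to 75% from 53.8%; in wild type to 69.3% from 55.1%, and for the genotype under anti-CD3 to 4.98% from 27.2%. As a ratio, counts over all genes changed most for the genotype under anti-CD3 among comparisons with over 1 gene called, with 169 called, 1954 with the block, 1388 with replicates 1 and 2 alone, 597 with array weights, 261 after median centring, 46 with Xist as a covariate, 5 with those groups alone, 0 with replicates 3 and 4 alone and 7 to 452 with single arrays left out. Replicates 3 and 4 alone gave 2896 for the CD28 effect in knockout (6245) and 2650 in wild type (4770), and 3 and 4 clock-linked genes in place of 10 and 10. Each of those clock-linked counts includes a gene without a call in the main fit. Replicates 1 and 2 alone gave 80 for the interaction, in place of 0.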
